A study of Rattus norvegicus with 22 samples.

Results

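IGF-1a and VEGF are the growth factor mRNAs followed here in the calcaneal tendon (CT) of the rat after an injury to the muscle that pulls on it. Both were chosen by name as 2 of the 22 target genes of a qRT-PCR panel, with earlier results of these data known. The tendons came from 22 adult male Wistar rats in 4 groups, and each rat gave 1 sample. The control group (C, 5 rats) was not exposed to muscle injury, and in the other groups the gastrocnemius muscle (GA) was exposed through a skin incision, frozen with a cold iron bar (cryolesion) and the tendon taken 3 days (3D, 5 rats), 14 days (14D, 6 rats) or 28 days (28D, 6 rats) later. The sample titles call the tendon injured, whereas the methods of the study place the lesion in the belly of the muscle. No sham operation was described for C, so an effect of anaesthesia and incision cannot be told apart from one of the muscle lesion. The whole tendon was extracted, and in such bulk RNA fewer cells of a type and less RNA per cell cannot be told apart.

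IGF-1 is a secreted polypeptide of the insulin family that binds the IGF-1 receptor, a tyrosine kinase, and promotes growth, survival and matrix synthesis in muscle and tendon. IGF-1a names the most abundant of the splice forms that encode its precursor, and it is made in the liver as well as locally by fibroblasts and muscle cells. VEGF (gene symbol Vegfa) is a secreted dimer that acts on tyrosine kinase receptors of endothelial cells and is the main signal for the sprouting of new blood vessels. The healthy tendon is poorly supplied with vessels, and VEGF is known to be made there during development and during repair after rupture. Of the other growth factors of the study, connective tissue growth factor (CTGF) was not analysed here, and TGF-β1 was, which stimulates collagen synthesis through the SMAD proteins.

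The readout was the threshold cycle (Ct), at which the fluorescence of an amplification crosses a set level, so that a Ct later by 1 cycle stands for an mRNA level lower by about a factor of 2. ΔCt is this Ct minus that of RPLP0, a ribosomal protein gene used as the reference, and log2 expression below is ΔCt with the sign reversed, set to 0 at the mean of C. Of the 44 values of the 2 genes, 3 matched the average of the remaining rats of the group to within 1e-06 and were left out as filled in, namely VEGF in replicate 1 of C and IGF-1a in replicate 4 of C and replicate 3 of 3D. That left 41 values, 20 for IGF-1a and 21 for VEGF. The tendon markers SCX, MKX and TNMD gave a Ct in 66 of 66 wells, from 21.8 to 36.6, and the panel held no marker of muscle, endothelial or blood cells against which admixture could be read. Both genes came late on the panel. The mean Ct was 31.0 for IGF-1a and 30.8 for VEGF, places 17 and 15 of 22 from the earliest, but efficiencies of different assays differ, so that these Ct values do not rank the 2 mRNAs.

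In the tendons the reference itself was not at a constant Ct. RPLP0 crossed the threshold at 27.3 ± 1.91 cycles in C (mean ± SD, n = 5) and 28.2 ± 2.37 in 3D (n = 5). In 14D it did so at 27.1 ± 1.15 cycles (n = 6) and in 28D at 28.8 ± 1.28 (n = 6). The difference of 1.57 cycles between 28D and C had an exact two-sided permutation p of 0.134, and 2.41 cycles and 0.0143 without replicate 4 of C, whose RPLP0 Ct of 30.6 stood apart from the 26.1 to 26.9 of the other C rats. Between 28D and 14D the difference was 1.72 cycles (exact p = 0.0303). Replicate 2 of 3D was late for RPLP0 (32.3) and was the one rat with IGF-1a and VEGF wells above a Ct of 35. The results below are therefore given relative to RPLP0, and then as the difference between the 2 genes within a rat, which needs no reference.

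IGF-1a mRNA levels after muscle injury were compared first. In C the log2 expression of IGF-1a was −0.64, 0.40, −0.21 and 0.45 in replicates 1, 2, 3 and 5. In 3D it was −0.20, −1.87, 0.52 and −0.78 in replicates 1, 2, 4 and 5, a range that took in all of C. In 14D the rats split widely, with 2.53 and 2.30 in replicates 2 and 3 against −0.99, 0.15, 0.18 and −0.49 in replicates 1, 4, 5 and 6. In 28D the values were 1.09, 0.46, 0.63, 0.92, 1.83 and 2.47. All 6 rats of 28D thus lay above all 4 measured rats of C, the nearest pair being 0.46 against 0.45, while 3D and 14D overlapped with C on both sides.

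**Figure D1:**
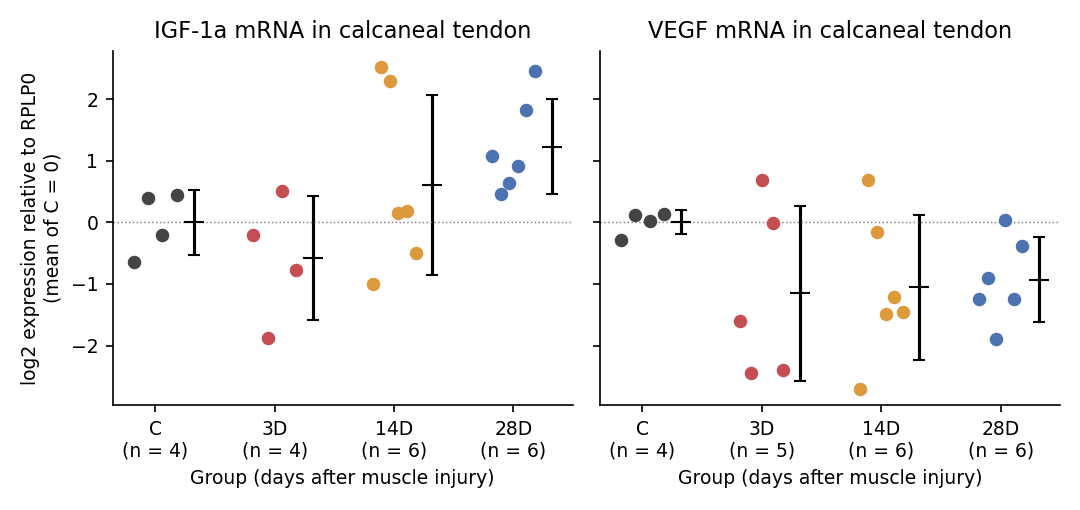
Log2 expression relative to RPLP0 (y axis, 0 = mean of C) of IGF-1a and VEGF in each rat of C, 3D, 14D and 28D (x axis). Points are rats and bars are the group mean with its SD. IGF-1a in 28D lies from 0.46 to 2.47, above every C rat, while VEGF in 28D lies from −1.89 to 0.05 and overlaps C in 1 rat.

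The order of the group means for IGF-1a was 28D (1.23 ± 0.77, SD, n = 6), 14D (0.61 ± 1.46, n = 6), C (0 ± 0.52, n = 4) and 3D (−0.58 ± 1.01, n = 4), and no neighbours in this order differed in the test. That test was limma over the whole panel, with p-values adjusted over all 22 genes and 6 pairs of groups. The highest level relative to C was that of 28D, at 2.35-fold (log2 difference 1.23, SE 0.64, 95% interval −0.10 to 2.57, adjusted p = 0.275). The exact permutation p of this difference was 0.0143, and 0.126 after the same adjustment. RPLP0 was later in 28D than in C by 1.57 cycles over all rats. Without replicate 4 of C, whose IGF-1a value was left out as filled in, it was later by 2.41 cycles (exact permutation p = 0.0143). The part of RPLP0 in the IGF-1a difference was not tested. Of all target genes 9.09% (2 of 22, IGF-1a and TGF-β1) had every 28D rat above every C rat, and 0% passed limma in this comparison. With TGF-β1, the log2 difference between 28D and C was smaller, at 0.57 (adjusted p = 0.506, all 6 rats of 28D above C).

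The lowest IGF-1a level was that of 3D, 0.667 times C, but with an interval from −2.05 to 0.88 on the log2 scale the difference was within the spread of the rats (SE 0.71, adjusted p = 0.672). Without replicate 2, the rat with the late RPLP0, the log2 difference was −0.15 in place of −0.58, and without replicate 4 it was −0.95. Here 4.55% of the target genes (1 of 22) passed. In 14D the level was 1.53 times C (log2 0.61, SE 0.64, adjusted p = 0.622), and 0% of the genes passed. This log2 difference was 0.23 without replicate 2, 0.28 without replicate 3 and 0.93 without replicate 1. Replicates 2 and 3 stood above all C rats and replicate 1 below them. The former were also the 14D rats with the latest RPLP0 (27.6 and 29.3, against 26.3 to 26.7 in the other 4), and the part of this in the split was not tested.

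Between times after injury, the largest IGF-1a difference separated 28D from 3D. It was 3.52-fold (log2 1.82, SE 0.64, 95% interval 0.48 to 3.16), with 5 of 6 rats of 28D above all measured rats of 3D, yet it did not pass. Its adjusted p in limma was 0.0786, and the exact permutation p was 0.00952, or 0.105 adjusted. In this comparison 31.8% of the target genes passed, all of them higher in 28D, and the median log2 difference over the panel was 1.07. IGF-1a was the gene with the 4th largest difference of the 22. The log2 difference went past the threshold without replicate 4 of 3D, the 3D rat with the highest level (2.18, adjusted p = 0.0423), and was farthest from it without replicate 2, the 3D rat with the lowest (1.39, adjusted p = 0.275). It was also 1.39 with wells above a Ct of 35 as missing (adjusted p = 0.244). TGF-β1 was alike in this respect, with a log2 difference of 1.35 and an adjusted p of 0.0772. From 3D to 14D the IGF-1a difference was 1.20 (SE 0.64, adjusted p = 0.275) in a comparison where 27.3% of the genes passed, and from 14D to 28D it was 0.62 (SE 0.58, adjusted p = 0.556), where 0% did.

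VEGF, in contrast, lay on the low side of C at every time. In C its log2 expression was close together, at −0.28, 0.13, 0.02 and 0.14 in replicates 2, 3, 4 and 5. In 3D it was −1.60, −2.44, 0.69, −0.01 and −2.40, with 3 of 5 rats below all of C and replicate 3 above them. In 14D it was −2.71, 0.70, −0.16, −1.49, −1.21 and −1.46, with 4 of 6 rats below C and replicate 2 above. In 28D it was −1.24, −0.90, −1.89, 0.05, −1.24 and −0.38, with all rats below C but replicate 4, which fell inside the range of C. No group after injury was free of rats at the level of C.

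The order of the VEGF means was C (0 ± 0.19, SD, n = 4), 28D (−0.93 ± 0.69, n = 6), 14D (−1.05 ± 1.18, n = 6) and 3D (−1.15 ± 1.42, n = 5), and again no neighbours differed in the test. VEGF mRNA was at 0.450 times C in 3D (SE 0.66 on the log2 scale, adjusted p = 0.303) and at 0.482 times C in 14D (SE 0.63, adjusted p = 0.333). In 28D it was at 0.524 times C (log2 difference −0.93, SE 0.63, 95% interval −2.24 to 0.37, adjusted p = 0.403). Its exact permutation p in 28D was 0.0286, or 0.169 adjusted, and those of 3D and 14D were 0.151 and 0.133. The spread of VEGF in C was the narrowest of the 4 groups for this gene, and limma takes 1 variance per gene over the 4 groups.

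Among the injured groups the means of VEGF lay within a pooled SD of each other. The log2 difference was 0.10 from 3D to 14D (95% interval −1.13 to 1.32, adjusted p = 0.961), 0.22 from 3D to 28D (0.498-fold to 2.72-fold, adjusted p = 0.888) and 0.12 from 14D to 28D (−1.05 to 1.29, adjusted p = 0.944). Each of these intervals takes in differences of 1 log2 unit in either direction. Against C, VEGF held place 17 of 22 from the highest difference at 3 days, 20 at 14 days and 21 at 28 days, where IGF-1a held places 9, 5 and 3. So at 28 days the 2 growth factors were near opposite ends of the panel.

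**Figure D2:**
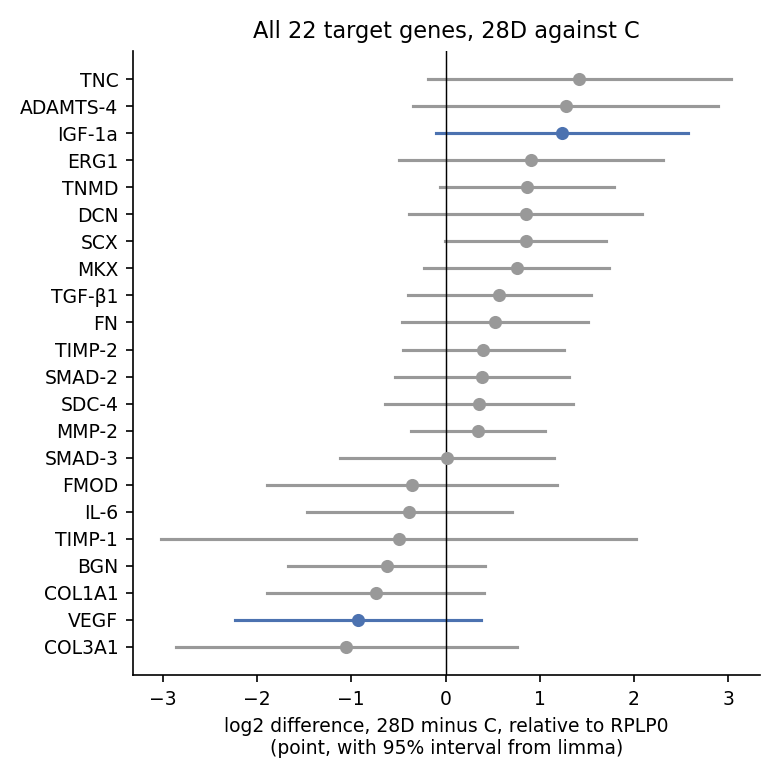
Log2 difference between 28D and C (x axis, with its 95% interval from limma) for each of the 22 target genes (y axis), relative to RPLP0. The points of IGF-1a at 1.23 and VEGF at −0.93 lie near opposite ends, and no gene of the panel passed the test in this comparison.

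The relation between the 2 mRNAs can be read in each rat without RPLP0, from the Ct of VEGF minus the Ct of IGF-1a. A rise of this difference by 1 cycle means about a factor of 2 less VEGF per IGF-1a. It was available in 19 rats, and since it was taken up because the group means of these data move apart, it is a description with no p. In the 3 rats of C with both genes measured it was −0.86, −1.88 and −1.24 cycles. In 3D it was −0.14, −0.98, −1.02 and 0.08 (replicates 1, 2, 4 and 5), partly within the range of C.

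In 14D the difference was 0.17, 0.29, 0.92, 0.10, −0.16 and −0.58 cycles, and in 28D it was 0.78, −0.19, 0.98, −0.67, 1.53 and 1.30. Every rat of both groups lay above every C rat, and 14 of 16 rats after injury did so. Those that did not were replicates 2 and 4 of 3D.

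**Figure D3:**
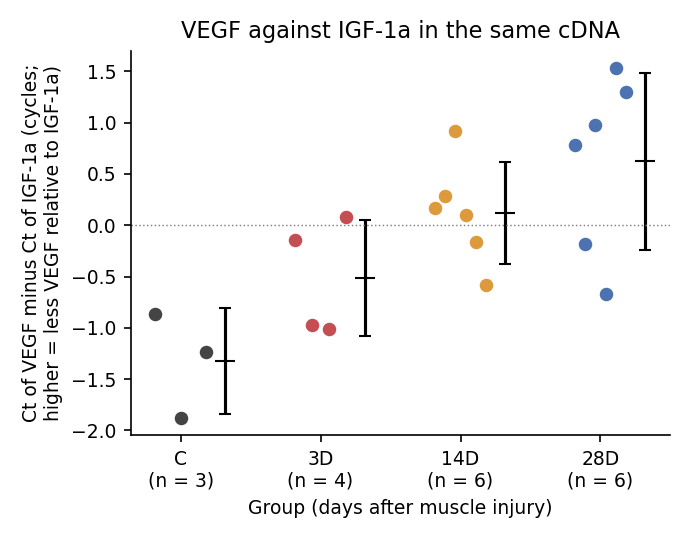
Ct of VEGF minus Ct of IGF-1a in each rat (y axis, cycles) by group (x axis), with the group mean and SD. Higher points mean less VEGF mRNA per IGF-1a mRNA, and the rats of 14D (from −0.58) and 28D (from −0.67) all lie above the 3 of C (up to −0.86).

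The group means followed the order of time, from −1.33 ± 0.51 cycles in C (SD, n = 3) through −0.51 ± 0.56 in 3D (n = 4) and 0.12 ± 0.50 in 14D (n = 6) to 0.62 ± 0.87 in 28D (n = 6). The amount of VEGF per IGF-1a was lower than in C by 1.75-fold in 3D (0.81 cycles, SE 0.409), 2.73-fold in 14D (1.45 cycles, SE 0.359) and 3.85-fold in 28D (1.95 cycles, SE 0.462). All 3 are more than the pooled SD of 0.657 cycles within groups, but in 3D the rats overlapped with C. From 14D to 28D the step of 0.50 cycles (SE 0.408) was smaller than that SD, and the 2 groups overlapped. From 3D the steps were 0.64 cycles to 14D (SE 0.347) and 1.14 cycles to 28D (SE 0.452), with 4 of 6 rats above all of 3D in each. Of 210 gene pairs, 12.4% were free of overlap between 3D and 14D and 3.81% between 3D and 28D.

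The same measure was taken for all pairs of target genes as background. Against C, 4.33% of 231 gene pairs were free of overlap in 14D and 5.19% in 28D, and 15.2% of 210 in 3D. By size the VEGF and IGF-1a pair held place 35 of 231 in 14D and place 15 of 231 in 28D, where the median size over the pairs was 0.77 cycles. In 3D it held place 89 of 210. Between injured groups it was place 128 of 210 from 3D to 14D, 67 of 210 from 3D to 28D and 125 of 231 from 14D to 28D. Only 3 C rats enter it, and with the filled-in numbers put back, replicate 1 of C would read −1.79, inside the range of C, while replicate 4 of C would read 2.64 and replicate 3 of 3D −5.39, outside that of their groups.

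In some rats a late RPLP0 Ct and a high difference went together. In 14D, replicates 2 and 3 had RPLP0 at 27.6 and 29.3 and differences of 0.29 and 0.92, while the other 4 rats had RPLP0 between 26.3 and 26.7 and differences from −0.58 to 0.17. In 28D, replicate 4 had the earliest RPLP0 (26.8) and the lowest difference (−0.67), against −0.19 to 1.53 in the others (27.8 or later). Across the 19 rats Pearson's r between RPLP0 Ct and the difference was 0.443 (permutation p = 0.0568, adjusted over 6 relations 0.0568) and Spearman's rho was 0.516 (p = 0.0244, adjusted 0.0293).

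Without the rats farthest from the median RPLP0 Ct (replicate 1 of 28D and replicate 2 of 3D) r was 0.782, and it was 0.880 within 14D and likewise 0.880 within 28D (n = 6 each). In 3D and C the direction was the other one. Replicates 5 and 1 of 3D, with RPLP0 at 27.1 and 27.5, had differences of 0.08 and −0.14. Replicates 4 and 2 of 3D, at 27.9 and 32.3, had −1.02 and −0.98. In C the differences were −0.86 at 26.1, −1.24 at 26.2 and −1.88 at 26.4. The part of the RPLP0 level in the shift of the ratio was not tested. The 3 rats of C had RPLP0 between 26.1 and 26.4 and differences of −1.88 to −0.86. Of the rats of 28D, replicate 4 had the RPLP0 nearest to these (26.8) and the difference nearest to them (−0.67). Replicates 4 and 6 of 14D had RPLP0 within the range of these C rats (26.4 and 26.3). Their differences of 0.10 and −0.58 lay above every C rat.

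The choice of reference set how far each gene stood from C. With the Ct alone, the median log2 difference of the 22 genes between 28D and C was −1.86, where relative to RPLP0 it was 0.39, so only the place of a gene within the panel can be compared between these scales. On the Ct alone, the log2 difference between 28D and C was −1.18 for IGF-1a and −2.42 for VEGF. IGF-1a thus turned direction but was above the median of the panel on both scales, and VEGF was below it on both. With the mean of the other target genes of the rat as the reference the differences were 0.91 for IGF-1a (SE 0.51, adjusted p = 0.393) and −1.11 for VEGF (SE 0.57, adjusted p = 0.357). In 3D the IGF-1a level was 0.04 above C by this reference, in place of 0.58 below it, both within the spread of the rats. Between 28D and 3D the IGF-1a difference was 0.87 by this reference (SE 0.51, adjusted p = 0.393), in place of 1.82. The panel median of that comparison was 0.10 by this reference and 1.07 relative to RPLP0. For VEGF the differences among the injured groups changed sign with the reference.

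IGF-1a and VEGF varied together from rat to rat. Their Ct values had a Pearson's r of 0.907 over 19 rats (permutation p = 1e-05, the smallest that the permutations can give, adjusted 6e-05; Spearman's rho 0.870), and 0.887 without the rats farthest from the median. The same cDNA enters both, so a shared amount of input moves both Ct values. Relative to RPLP0 r was 0.660 (p = 0.00207, adjusted 0.00311) and rho 0.579 (p = 0.0109, adjusted 0.0164), with r 0.505 without the farthest rats. This value still shares the RPLP0 Ct of the rat, and with the mean of the 20 other target genes as the reference r was 0.448 (p = 0.0526, adjusted 0.0568) and rho 0.360 (p = 0.131).

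**Figure D4:**
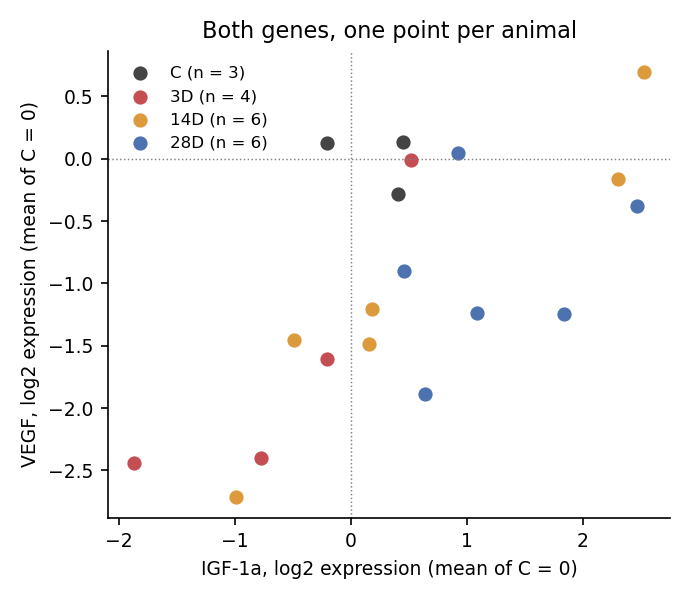
Log2 expression of VEGF (y axis) against that of IGF-1a (x axis) in the 19 rats with both measured, relative to RPLP0, coloured by group. Pearson's r over all rats is 0.660, and the 6 rats of 28D lie to the right of the C rats (more IGF-1a), 5 of them also below the lowest C value of VEGF.

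As deviations from the group means the values had an r of 0.775 relative to RPLP0 (permutation p = 0.00012, adjusted 0.00036) and rho 0.679 (p = 0.00163, adjusted 0.00489). With the mean of the 20 other targets as the reference these deviations had r 0.688 (p = 0.00117, adjusted 0.00234) and rho 0.654 (p = 0.00324, adjusted 0.00648). Without replicates 2 and 3 of 14D, the rats farthest from the median, r relative to RPLP0 was 0.654. Replicate 2 of 14D was the highest rat of all for both genes, at 2.53 for IGF-1a and 0.70 for VEGF. Within 14D r was 0.952 and within 28D 0.297 (n = 6 each).

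By pattern over the rats, relative to RPLP0, the gene most like IGF-1a was decorin (DCN), a small proteoglycan that binds collagen fibrils, with r 0.878 over 20 rats and 0.738 by the mean of the other targets. Tenomodulin (TNMD), a membrane glycoprotein of mature tendon cells, followed with 0.808 (0.506 by the other reference), and fibronectin (FN), an adhesive matrix glycoprotein, with 0.744 (0.507). The least like was TIMP-1, an inhibitor of matrix metalloproteinases, with −0.244 (−0.515). For VEGF the most alike were biglycan (BGN) with 0.782 over 20 rats (0.683), DCN with 0.732 (0.478) and fibromodulin (FMOD), which like BGN and DCN is a small leucine rich proteoglycan of the collagen fibril, with 0.715 (0.614). IGF-1a was the gene 4th most like VEGF. The least like VEGF was scleraxis (SCX), the transcription factor of the tendon lineage, with −0.504 (−0.563). These correlations share RPLP0 and cDNA and are descriptions with no p.

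None of the 3 growth factors analysed here (IGF-1a, VEGF and TGF-β1) passed limma in any of the 6 pairs of groups, beside 10.6% of the tests over the whole panel. Their median log2 difference was 0.57 between 28D and C, with a panel median of 0.39, and 1.35 between 28D and 3D, with a panel median of 1.07. Among matrix genes that IGF-1 is known to stimulate in fibroblasts (COL1A1, COL3A1, FN and TNC), COL1A1, the chain that forms most of the tendon's collagen, was 6.69-fold lower in 3D than in C (adjusted p = 0.0117). Higher than in 3D were COL1A1 (log2 3.39) and FN (1.77) in 14D. In 28D the same held for COL1A1 (95% interval 1.80-fold to 8.86-fold) and FN (log2 1.63). These are 2 of 4 genes in each comparison, beside 27.3% of the panel in 14D and 31.8% in 28D. COL3A1 and TNC passed in no pair, and against C none of the 4 passed in 14D or 28D, as was so of the whole panel. Their median difference between 28D and C was −0.11, beside 0.39 for the panel.

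Genes with a known link to the growth of blood vessels were TNMD, DCN, TIMP-2, MMP-2, IL-6 and TGF-β1. From 3D to 14D 3 of 6 rose (27.3% of the panel), namely DCN (log2 1.91), TIMP-2 (1.56) and MMP-2 (1.18). From 3D to 28D 4 of 6 rose (31.8% of the panel), namely DCN (2.32), TIMP-2 (1.59), TNMD (1.53) and MMP-2 (1.11). DCN and TNMD are known to restrain endothelial cells, as is TIMP-2, whereas MMP-2 opens the basement membrane for them. None of the 6 passed against C at any time. Their median difference from C was −0.77 at 3 days, 0.27 at 14 days and 0.49 at 28 days, beside panel medians of −0.77, 0.09 and 0.39. Beside these, the VEGF differences from 3D were 0.10 in 14D and 0.22 in 28D.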

How the data were processed

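The mRNA of 22 target genes was measured by TaqMan qRT-PCR in the CT of 22 rats, and groups were taken from the sample labels. A table deposited by the authors holds the Ct (technical duplicates averaged, per the methods), another the ΔCt against RPLP0 (a log2 scale with reversed sign), and another the fold change 2 to the power of −ΔΔCt against C, deposited as a ratio. Cycle thresholds carry no counting depth, and the number of rats limits the precision. The methods state 6 rats in each of the 4 groups, and labels and tables for 22 rats were used here. ACTB, GAPDH and CTGF were not used here. Of 484 values, 22 filled-in values (equal within 1e-06 to the mean of the group's other rats in Ct or ΔCt) and 2 blanks were left out, and 460 were used. The RPLP0 Ct was taken as Ct minus ΔCt. In 3 rats it was not the same for all genes. In replicate 5 of 3D it was 27.1 for 9 genes, both growth factors among them, and 28.5 for 11 others. The latter equals the mean of the group's other rats, and ΔCt values built on it were kept as deposited. They enter the panel medians, shares and correlations. With the own RPLP0 Ct of each rat the panel median for 28D against 3D was 1.21, in place of 1.07. The fold change table lay within 0.1 log2 of the ΔCt table in 22 of 22 rats for both genes.

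Log2 expression was compared with limma 3.58.1 in R 4.3.3, with 4 group means and no covariates, and Benjamini-Hochberg adjustment over 22 genes and 6 pairs of groups. The threshold was an adjusted p of 0.05. Exact two-sided permutation tests of the rats were run beside it. Their smallest p is 0.0286 with 4 rats against 4, 0.00794 with 5 against 4, 0.00476 with 6 against 4 and 0.00216 with 6 against 5 or 6. Correlations were tested with 100000 permutations. SE of the Ct difference between genes comes from the SD of each group. Code was tested on simulated data. The members, gene lists and named genes (both growth factors, TGF-β1, the 3 genes most like and the 1 least like each by r, and the listed genes that passed) were chosen with earlier results of these data known. Alternatives were the Ct alone, other references and RPLP0 values, all deposited values, the fold change table, Ct above 35 as missing, the linear scale, 2 groups in the model, least squares, Dunn's procedure, adjusted exact p-values, leaving out each rat and the replicate number as a block.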

Additional observations from a re-analysis of the deposited data

Results flagged for a closer look

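In 3 of 23 groups of values tested, 1 rat stood apart from the rest by Dixon's test, where chance flags about 1 in 20. The IGF-1a Ct of replicate 2 of 3D was 37.8, against 31.1 to 31.5 in the other 3D rats, and the RPLP0 Ct of this rat was 32.3. The VEGF Ct of replicate 4 of C was 32.7, against 28.2 to 28.5 in the other C rats. The RPLP0 Ct of the same C rat was 30.6, against 26.1 to 26.9. Its log2 expression of VEGF relative to RPLP0 was 0.02, inside the range of the other C rats.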

How the results depend on the processing

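Over 168 results of IGF-1a and VEGF under the alternatives, 148 kept direction and side of the threshold, 18 changed direction and 2 newly passed. No difference of either gene passed as reported, so none could lose a pass. With the Ct alone the IGF-1a difference became −0.0813 in 14D and −1.18 in 28D, each against C, and −1.10 from 14D to 28D, and that of VEGF −0.43 for 28D against 3D and −1.60 for 28D against 14D. With the mean of the other targets as the reference IGF-1a in 3D was 0.0356 above C, and VEGF was −0.60 for 14D and −0.78 for 28D against 3D and −0.18 for 28D against 14D. VEGF in 14D against 3D was −0.17 with the most frequent RPLP0 Ct of each rat, −0.22 with Ct above 35 as missing, −0.22 without the rats with RPLP0 above 30 (chosen after seeing the data) and −0.0246 on the linear scale. VEGF in 28D against 3D was −0.0476, −0.10, −0.0407 and −0.0855 under the same settings, and in 28D against 14D −0.0609 on the linear scale. The most frequent RPLP0 Ct of replicate 5 of 3D is the filled-in 28.5, in place of its own 27.1. The cause of these changes of direction was not tested. IGF-1a in 28D against 3D passed with all deposited ΔCt values (1.82, adjusted p = 0.0423) and with the fold change table (1.82, adjusted p = 0.0274), both of which hold the filled-in values. It was 0.87 with the mean of the other targets as the reference (adjusted p = 0.393). With the most frequent RPLP0 Ct it was 1.48 (adjusted p = 0.250), and with the Ct alone 1.69 (adjusted p = 0.449).

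Leaving out each rat gave log2 differences of 1.39 to 2.18 for IGF-1a in 28D against 3D (adjusted p 0.0423 to 0.275) and 0.99 to 1.39 in 28D against C (adjusted p 0.217 to 0.432). For VEGF they were −0.25 to 0.56 in 14D against 3D, −0.10 to 0.68 in 28D against 3D, −0.21 to 0.47 in 28D against 14D and −1.13 to −0.74 in 28D against C. The Ct difference between the genes moved from 1.17 to 1.68 cycles in 14D against C and from 1.67 to 2.20 in 28D against C. With all deposited Ct values it was −0.87 in 3D, 0.75 in 14D and 1.25 in 28D, each minus C, and 1.61 from 3D to 14D and 2.11 from 3D to 28D. Replicate numbers did not pair the rats. Between rats of different groups r was −0.858 to 0.434 for the same number (median −0.0876, over 0.1 in 9 of 31 pairs). For different numbers it was −0.819 to 0.894 (median −0.00531, over 0.1 in 61 of 150 pairs). With the replicate number as a block IGF-1a was 1.73 in 28D against 3D (adjusted p = 0.216) and 1.20 in 28D against C (adjusted p = 0.405). VEGF was −0.75 in 28D against C (adjusted p = 0.594), and neither gene passed in any pair, as without the block.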
